A study of Mus musculus with 5 samples.

Results

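The genes for the proteins of the cytosolic ribosome were followed through the 5 RNA-seq libraries of sorted sympathetic neurons. Members were the protein-coding genes of the counts table whose symbols start with *Rpl* or *Rps* and a digit, together with *Rpsa*, *Rplp0*, *Rplp1*, *Rplp2*, and *Fau*, without *Rps6k* kinases and symbols that contain -ps. This rule, which used no measured value, found 84 of the 20224 genes in the table. Of these, 46 encode proteins of the large subunit and 32 proteins of the small subunit, and the other 6 were the paralogs *Rpl7l1*, *Rpl22l1*, *Rpl36al*, *Rps27l*, and *Rps27rt*, and *Rps19bp1*, which binds RPS19 and is not a ribosomal protein. All 84 passed the filter on low counts. *Rack1*, which encodes a protein of the small subunit, lies outside the rule and is given separately.

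Each library held 100 cells from the sympathetic ganglia of E14.5 mouse embryos from non-diabetic pregnancies. The cells were sorted for eGFP from the *Prph-eGFP* transgene, a marker of peripheral neurons, and for tdTomato from the Ai14 reporter. Cre recombinase switches this reporter on. There were 2 control libraries (replicates 5 and 6; *Hif1a* loxP/+, *Isl1Cre*, Ai14, *Prph-eGFP*) and 3 *Hif1aCKO* libraries (replicates 3, 4, and 5; *Hif1a* loxP/loxP, *Isl1Cre*, Ai14, *Prph-eGFP*). The sorted controls thus carried Cre and 1 floxed *Hif1a* allele, although the labels also describe controls without *Isl1-Cre* for the study at large. In all 5 libraries Cre was inserted at the *Isl1* locus, which is active in other lineages too, and the lines came from C57BL/6J, C57BL/6N, and FVB mice. The labels name the libraries as biological samples and give neither sex nor sequencing batch.

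Total counts ranged from 8254211 to 9700887. The 15 sympathetic neuron markers on the list were all detected and summed to between 84533 and 130574 counts. Of other cell types, markers of mesenchyme summed to at most 27 counts, the erythroid marker to at most 31, those of endothelium to at most 95, and the macrophage marker to between 31 and 112. Markers of chromaffin cells summed to between 16307 and 24356 counts, those of sensory neurons to between 427 and 911, and those of motor neurons to between 278 and 1018. Schwann cell precursor markers summed to between 33 and 53 counts in 4 libraries and to 1118 in *Hif1aCKO* replicate 3. Normalized counts of *Hif1a* were 2086 and 1584 in the controls and 2747, 1757, and 2135 in *Hif1aCKO*, so the groups overlapped. The deposited count covers the whole gene and not only exon 2, which Cre removes, and therefore does not check the labels.

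The eukaryotic ribosome joins a small subunit, which reads the mRNA, to a large subunit, which links the amino acids, and most of its proteins are needed in a fixed stoichiometry. Ribosomal protein mRNAs are short and abundant, and in mammals nearly all start with a C followed by a run of pyrimidines, the terminal oligopyrimidine (TOP) tract, through which mTORC1 and LARP1 control their translation. Their genes have left many processed pseudogenes, which are intronless copies of the mRNA inserted elsewhere in the genome, so that a read from a ribosomal protein mRNA can match several places.

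The starts of annotated mRNAs show the shared feature. A start of C and at least 4 pyrimidines was present in a coding transcript model of 24 of the 84 members (28.6%) and of 820 of the 14253 coding genes of the table with such a model (5.75%). Annotated starts differ between models of a gene, and no match says only that no model begins with these letters. The first 20 bases of 5 of these mRNAs are shown from GENCODE M21 on GRCm38, with the tract in capitals, because the tract is what sets this class of mRNAs apart. They lie at chr6:115808728-115808747 (minus strand, *Rpl32*), chr14:24490718-24490737 (plus, *Rps24*), chr17:24720110-24720129 (plus, *Rps2*), chr15:5116645-5116664 (plus, *Rpl37*), and chr17:33955644-33955663 (minus, *Rps18*), each within the first exon of a coding model.
Rpl32: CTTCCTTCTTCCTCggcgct
Rps24: CTCTTTTCCTCCTCTCCagc
Rps2: CTTCTTCTTCTTCgggagaa
Rpl37: CTCTTCCggtctctttggcc
Rps18: CTCTTCCacaggaggcctac

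The median log2 fold change (*Hif1aCKO* minus control) was 0.25 over the 24 members with such a start and 0.24 over the 60 without.

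Promoter windows from RefSeq on GRCm38.p6, each of 300 bases, were found for 64 of the 84 members. The ETS factor core CCGGAAG, searched on both strands, was present in 25 of the 64 (39.1%) and in 2055 of 11053 coding genes with a window (18.6%). The YY1 motif AAGATGGC was present in 7 (10.9%), against 542 of all genes (4.90%). The core of the hypoxia response element, ACGTG, to which HIF-1 binds, was present in 21 (32.8%), close to the 3118 of all genes (28.2%). The ETS core and the YY1 motif can overlap through the letters AAG that end one and start the other. A match describes the sequence and not binding. The 60 bases before the RefSeq start of 3 members, which for *Rpl37* lies upstream of the GENCODE start, are shown with the motifs in capitals, at chr15:5116553-5116612 (plus strand, *Rpl37*), chr12:28635954-28636013 (minus, *Rps7*), and chr11:98026650-98026709 (plus, *Rpl19*). They lie outside the annotated coding transcripts and were chosen for that among the windows with a match. *Rpl37* and *Rps7* hold the ETS core, and *Rpl19* holds it and the hypoxia response element core. In *Rpl19* the latter matches on both strands at the same place, so that CACGTG is in capitals.
Rpl37: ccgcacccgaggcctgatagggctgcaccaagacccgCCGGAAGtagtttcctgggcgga
Rps7: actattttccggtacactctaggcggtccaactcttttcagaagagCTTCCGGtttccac
Rpl19: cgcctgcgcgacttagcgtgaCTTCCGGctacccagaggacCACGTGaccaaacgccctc

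Genotypes were compared to ask whether the loss of *Hif1a* altered the expression of ribosomal protein genes. No member was called by edgeR's quasi-likelihood test, and neither was any of the 15032 genes tested (0%; adjusted p-value under 0.05, log2 fold change above 0.3 or below -0.3, mean normalized count of at least 50). An edgeR p-value under 0.05 before adjustment was found for 1153 genes (7.67%), of which 9 were members. DESeq2 called 60 of 15478 genes (0.388%) and no member. It gave an unadjusted p-value under 0.05 to 1425 of 20224 genes (7.05%) and to 16 of the 84 members. Limma-voom called no gene and gave such a p-value to 1225 of 15032 genes (8.15%) and to 14 of the 84 members. The smallest adjusted p-value of a member was 0.621 by edgeR and 0.336 by DESeq2.

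Although no single gene passed the test, the members shared a direction. The log2 fold change was above 0 in 81 of the 84 (96.4%), against 51.3% of all genes tested, and its median was 0.24 (quartiles 0.16 and 0.32), against 0.01 over all genes. In 47 members (56.0%) every *Hif1aCKO* library lay above both controls, against 12.9% of all genes, and in no member did every *Hif1aCKO* library lie below them, against 12.9% of all genes. The groups overlapped in the other 37. All 9 members with an unadjusted p-value under 0.05 (10.7%) had the higher level in *Hif1aCKO*, against 3.83% of all genes in that direction and 3.85% in the other. The large subunit had 23 of 46 genes with separate groups and a median of 0.21, and the small subunit 20 of 32 and a median of 0.25. The members are transcribed in the same cells and share libraries, and are therefore not independent of each other. Because each library held a fixed number of cells of 1 sort, a change in the cells sorted and a change in RNA per cell cannot be told apart.

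**Figure D1:**
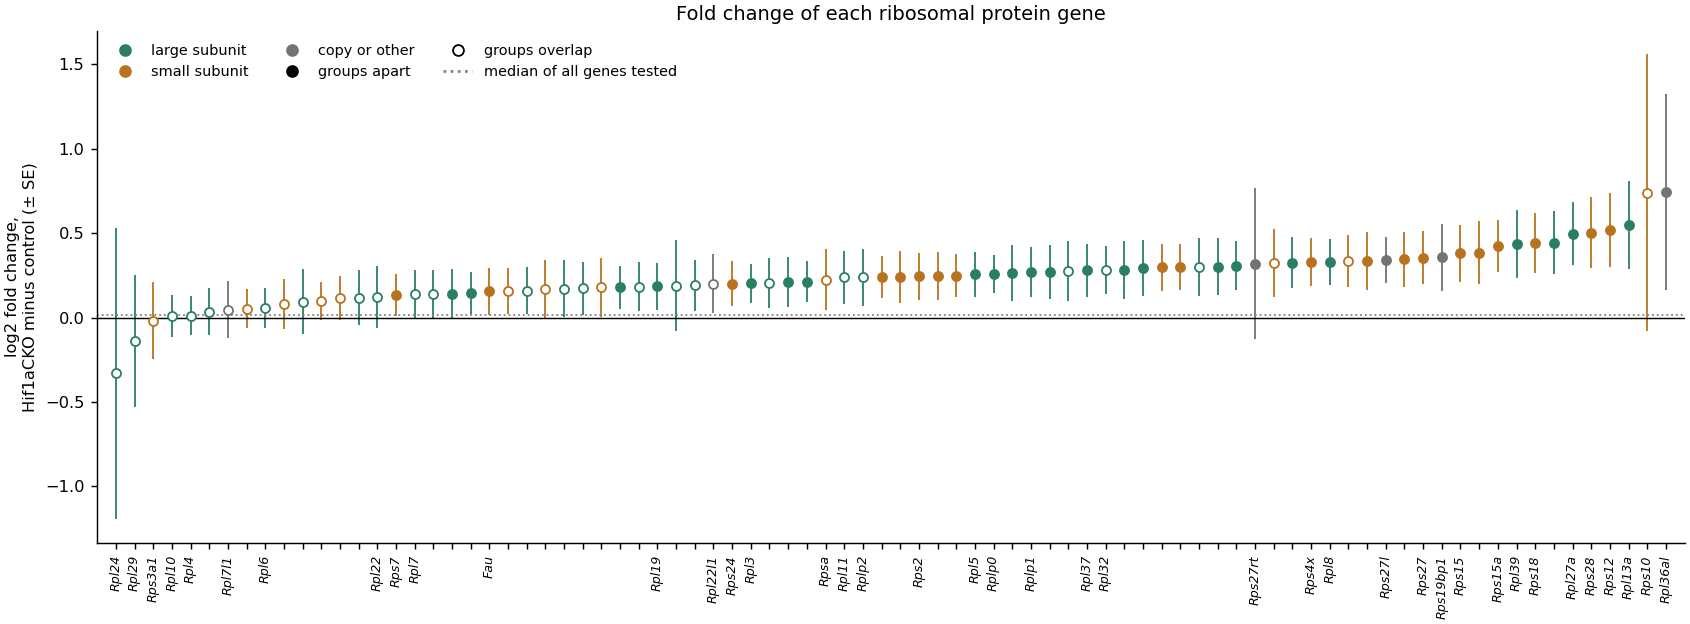
The log2 fold change (*Hif1aCKO* minus control, ± SE from edgeR) of each of the 84 members in ascending order, coloured by subunit, with filled points for the 47 members whose groups did not overlap and the members named in the text labelled. The points run from -0.33 for *Rpl24* to 0.74 for *Rpl36al*, and 81 lie above 0.

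The order of the libraries was graded rather than split by genotype. Each member's log2 normalized count was set against its own mean, and the median of these deviations was -0.08 for control replicate 5, -0.20 for control replicate 6, and -0.04, 0.09, and 0.24 for *Hif1aCKO* replicates 3, 4, and 5. Thus *Hif1aCKO* replicate 3 lay close to control replicate 5, and the groups were set apart mainly by control replicate 6 and *Hif1aCKO* replicate 5. The lowest of the 5 values was in control replicate 6 for 63 members, against 20.9% of all genes, and the highest was in *Hif1aCKO* replicate 5 for 73 members, against 22.03% of all genes. *Hif1aCKO* replicate 3 was below at least 1 control in 28 members, replicate 4 in 14, and replicate 5 in 2. The median fold change was 0.18 without control replicate 6 and 0.17 without *Hif1aCKO* replicate 5, when 80 and 74 members lay above 0. Without control replicate 5, 80 members lay above 0. Without *Hif1aCKO* replicate 5, no member had an edgeR p-value under 0.05 before adjustment, against 6.36% of all genes. The number of such members was 28 of 84 without *Hif1aCKO* replicate 3, against 12.1% of all genes. It was 5 of 84 without *Hif1aCKO* replicate 4, against 6.74% of all genes. No such number is given without a control, because only 1 control would remain, so its dependence on the controls is not shown. Without *Hif1aCKO* replicate 3 the smallest adjusted p-value of a member by edgeR was 0.317.

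Summed over the members, the share of all counts was 2.09% for control replicate 5, 1.92% for control replicate 6, and 2.15%, 2.39%, and 2.62% for *Hif1aCKO* replicates 3, 4, and 5. The groups did not overlap, but *Hif1aCKO* replicate 3 exceeded control replicate 5 by less than the difference between the controls. The mean was 2.01% ± 0.12 (SD, n = 2) in the controls and 2.39% ± 0.24 (SD, n = 3) in *Hif1aCKO*.

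**Figure D2:**
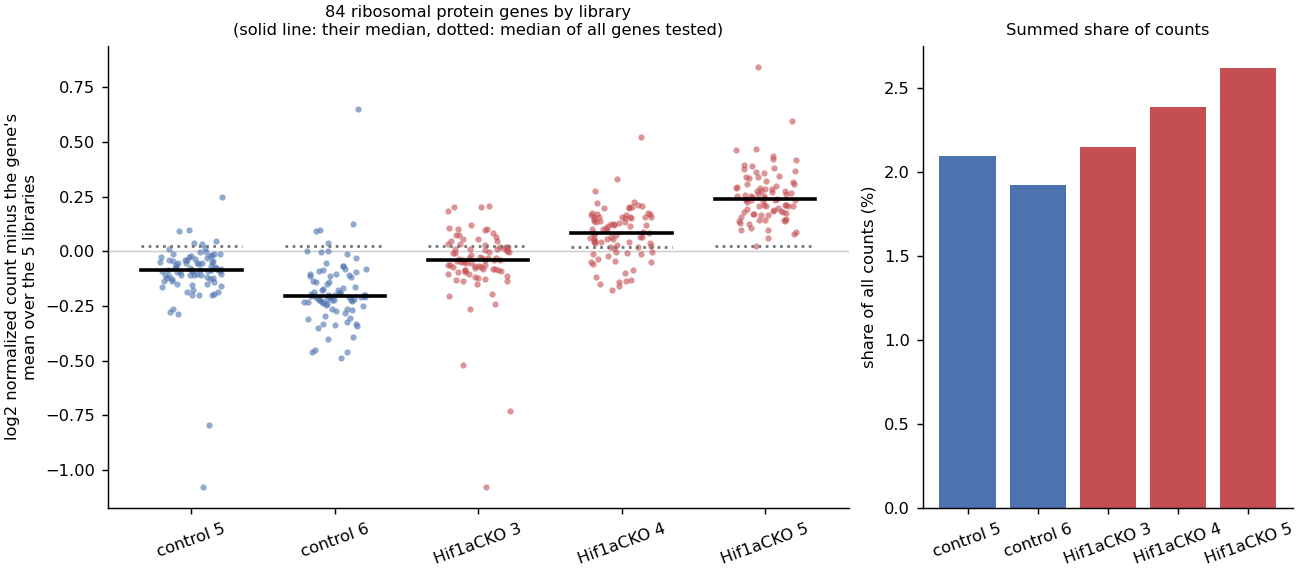
Left, the deviation of each of the 84 members from its own mean, in log2 normalized counts, in each library, with the members' median as a solid line and the median of all genes tested as a dotted line. Right, the members' share of all counts in percent, which runs from 1.92% in control replicate 6 to 2.62% in *Hif1aCKO* replicate 5.

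Other features of these libraries moved together with the members. Among coding genes that were not members and had a mean normalized count of at least 500, the median fold change on the log2 scale declined with mRNA length up to 4000 bases, from 0.12 over 114 genes with mRNAs under 750 bases and 0.08 over 143 genes of 750 to 1000 bases to -0.06 over 950 genes of 1500 to 2500 bases and -0.09 over 1139 genes of 2500 to 4000 bases. It was -0.06 over the 1215 genes with longer mRNAs. The deviations of the shortest class were -0.02 for control replicate 5, -0.13 for control replicate 6, and -0.05, 0.05, and 0.13 for *Hif1aCKO* replicates 3, 4, and 5, and in 28 of its 114 genes (24.6%) all *Hif1aCKO* libraries lay above both controls. The representative mRNA of the members had a median length of 869 bases and was shorter than 1500 bases in 72 of them. The members' median of 0.24 thus had the sign of other short mRNAs and was above their 0.12. Across the 84 members, fold change and mRNA length had a Spearman correlation of -0.35, and fold change and mean count of -0.31, over genes that share the same libraries. The part of mRNA length in the shift was not tested.

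The 19 genes of the G2/M phase list, which mark dividing cells, all had a fold change above 0, with a log2 median of 0.69. None was called by edgeR, which called no gene of the table. Before adjustment, 15 (78.9%) had an edgeR p-value under 0.05, against 3.83% of all genes in that direction. Their deviations were -0.32 for control replicate 5, -0.52 for control replicate 6, and 0.17, 0.48, and 0.10 for *Hif1aCKO* replicates 3, 4, and 5. The libraries with the highest level were thus different ones for the 2 groups of genes, *Hif1aCKO* replicate 4 for the G2/M list and replicate 5 for the ribosomal proteins. From these data the paper, using DESeq2, reports *Cdc20*, *Ccnb1*, *Kif23*, *Cenpe*, *Cenpf*, and *Mki67* as upregulated in *Hif1aCKO*. These genes are on the G2/M list, which is therefore not independent of the data. Sympathetic neuron markers had a median of -0.30, with 5 of 15 above 0. Of these 15, 8 lay wholly below and 2 wholly above the controls, and before adjustment 7 lower and 3 higher ones had an edgeR p-value under 0.05. The part of either in the shift was not tested.

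**Figure D3:**
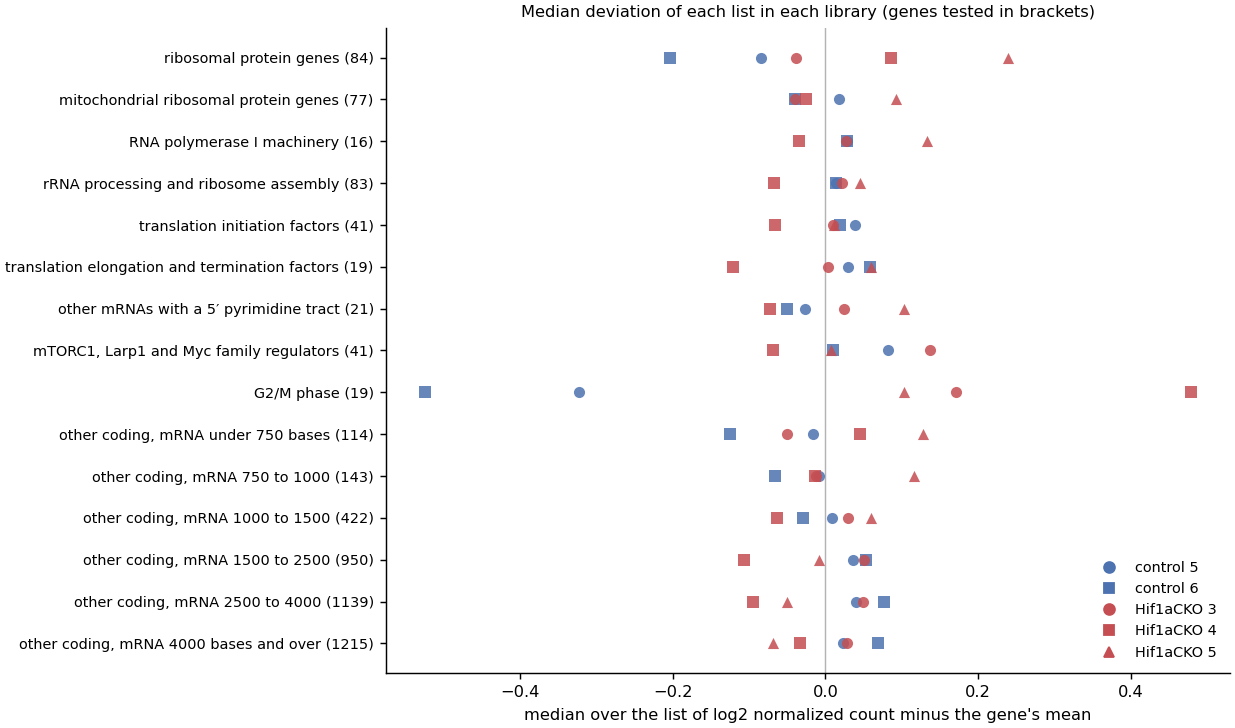
The median deviation of each gene list from its genes' own means in each library, in log2 normalized counts, with controls in blue and *Hif1aCKO* in red and the number of genes tested in brackets. Ribosomal protein genes and the G2/M list lay apart between the genotypes, while the lists for ribosome assembly and for initiation and elongation factors lay between -0.12 and 0.06 in every library.

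Among proteins of the large subunit, *Rpl27a* and *Rpl8* had the smallest p-values. Normalized counts of *Rpl27a* were 623 and 618 in the controls and 762, 847, and 1017 in *Hif1aCKO*. Those of *Rpl8*, whose protein lies next to the catalytic centre, were 2839 and 2684 against 3093, 3661, and 3644. In both genes every *Hif1aCKO* library exceeded both controls. The log2 fold change was 0.50 ± 0.18 (SE) for *Rpl27a* and 0.33 ± 0.13 for *Rpl8*, with edgeR adjusted p-values of 0.621 and 0.636.

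*Rpl39*, which encodes a small protein of the exit tunnel, had 507 and 456 counts in the controls and 544, 671, and 738 in *Hif1aCKO*, again without overlap. The acidic stalk, which recruits elongation factors, is anchored by RPLP0. *Rplp0* had 6653 and 6312 counts in the controls and 7348, 7422, and 8481 in *Hif1aCKO*, without overlap, and a log2 fold change of 0.26 ± 0.11 (edgeR adjusted p = 0.654). *Rpl3*, which helps to form the catalytic centre and had one of the 3 smallest spreads, had 3838 and 4050.5 counts against 4321, 4549, and 4752. Its groups were also separate, with a log2 fold change of 0.20 ± 0.12.

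Other abundant genes of the large subunit had fold changes near 0. *Rpl4*, whose protein lines the exit tunnel, had 13178 and 11420.5 counts in the controls and 13198, 11123, and 12881 in *Hif1aCKO*. *Rpl10*, whose protein joins late in assembly, had 3369.5 and 3403 against 3391, 3202, and 3629. *Rpl6* had 3301 and 3204 against 3242, 3391, and 3515. In these 3 genes the groups overlapped, and the log2 fold changes were 0.01 ± 0.12, 0.01 ± 0.12, and 0.06 ± 0.12. Leaving out 1 library turned the sign of *Rpl4* and *Rpl10*.

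RPL5 and RPL11 enter the large subunit together with the 5S rRNA and, when free, bind MDM2 and stabilize p53. *Rpl5* had 2148 and 1951 counts in the controls and 2386, 2412, and 2539.6 in *Hif1aCKO*, without overlap. *Rpl11* had 1742 and 1633 against 1727, 2016, and 2223, with *Hif1aCKO* replicate 3 between the controls. The log2 fold changes were 0.25 ± 0.13 and 0.24 ± 0.16 (edgeR adjusted p-values 0.699 and 0.747). Of the 14 genes of the 5S particle, *Mdm2*, and p53 list, none was called by edgeR, which called no gene of the table. None had an unadjusted edgeR p-value under 0.05, against 7.67% of all genes, a share at which a list this short holds few. The median of the list was 0.09. *Cdkn1a*, a target of p53, had 441 and 329 counts against 545, 665, and 423, and *Mdm2* had 1316 and 1101 against 1147, 809.8, and 959.

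In the small subunit, *Rps15a* had the smallest p-value of all members. It had 1363 and 1261 counts in the controls and 1644, 1659, and 1976 in *Hif1aCKO*. *Rps28* had 531 and 457 against 593, 670.0, and 837, and *Rps12* 447 and 349.7 against 475, 616, and 619.8. In all 3 genes the groups did not overlap. Their log2 fold changes were 0.42 ± 0.16, 0.50 ± 0.21, and 0.52 ± 0.22, with edgeR adjusted p-values of 0.621, 0.637, and 0.638.

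*Rps15*, whose protein sits near the decoding centre, was among the 5 genes with the highest level per kilobase of exons and had 2551 and 2179.7 counts against 2629, 3011, and 3589. *Hif1aCKO* replicate 3 was just above the higher control, and the log2 fold change was 0.38 ± 0.17.

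The paralogs tested and their partners had fold changes above 0, as did 81 of the 84 members (96.4%). Leaving out a library turned the sign of *Rpl7l1* and *Rpl22*. *Rps27l*, which p53 is known to induce, had 2282 and 1989 counts in the controls and 2793, 2567, and 2755 in *Hif1aCKO*. *Rps27* had 2565 and 2138 against 2637, 3021, and 3352. Neither gene showed overlap, and the log2 fold changes were 0.34 ± 0.14 (edgeR adjusted p = 0.626) and 0.35 ± 0.16 (0.660). *Rpl22l1* had 897 and 788 against 921, 883, and 1098, and *Rpl22* had 1112 and 881 against 1066, 959.6, and 1226. Both overlapped. *Rpl7l1*, with 1026 and 1057 against 1218, 936, and 1076, and *Rpl7*, with 3311 and 3198 against 3551, 3133, and 4059, overlapped as well. *Rps4l*, an annotated pseudogene of *Rps4x* and thus no member, had 776 and 654 counts against 804, 899, and 783. *Rps4x* had 1981 and 1962 against 2347, 2315, and 2758, without overlap, and a log2 fold change of 0.33 ± 0.14. *Rps19bp1* had 469 and 369 against 520.0, 521, and 568, also without overlap. *Rpl3l*, *Rpl10l*, and *Rpl39l* were not analysed here.

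Outside the rule, *Rack1*, which encodes a scaffold on the head of the small subunit, had 3490.4 and 3525 counts in the controls and 3336, 3638, and 4342 in *Hif1aCKO*. The groups overlapped, and the log2 fold change was 0.10 ± 0.14.

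The rest of the translation machinery had medians near that of all genes. The 77 tested genes for mitochondrial ribosomal proteins had a log2 median of 0.04, and 8 of them (10.4%) lay wholly above and 8 wholly below the controls, against 12.9% of all genes in each direction. The medians were -0.01 over 83 genes for rRNA processing and ribosome assembly, -0.01 over 16 genes of the RNA polymerase I machinery, -0.06 over 41 translation initiation factors, and 0.01 over 19 elongation and termination factors. No gene of these lists was called. The 21 other mRNAs with a TOP tract had a median of 0.03, with 5 (23.8%) wholly above and none wholly below the controls, against the same 12.9%. Among them *Tpt1*, a classic TOP mRNA, had 2523 and 2212 counts in the controls and 2732, 2876, and 2978 in *Hif1aCKO*, and *Npm1*, a nucleolar assembly factor, had 5204 and 4989 against 5762, 5274, and 6788. Both genes thus had separate groups, with log2 fold changes of 0.27 ± 0.13 and 0.22 ± 0.13 (edgeR adjusted p-values 0.690 and 0.728). *Eif3f*, a subunit of initiation factor eIF3, had 1205 and 1197 against 1424, 1370.0, and 1783.

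Single genes of these lists lay in either direction. *Sbds*, which releases eIF6 from new large subunits, had 924 and 907 counts in the controls and 762, 704, and 614 in *Hif1aCKO*. *Gspt2*, a termination factor, had 219 and 207 against 123, 108, and 148, and *Mrps27*, of the mitochondrial small subunit, had 650.0 and 536 against 407, 402, and 409. All *Hif1aCKO* libraries lay below both controls in these 3 genes. The log2 fold changes were -0.40 ± 0.17, -0.75 ± 0.29, and -0.55 ± 0.19, with edgeR adjusted p-values of 0.637, 0.621, and 0.621. In the other direction, *Utp18* had 244 and 242 counts in the controls and 375, 324, and 330 in *Hif1aCKO*. *Noc2l* had 252 and 261 against 321, 425, and 335. Both are on the list for rRNA processing and ribosome assembly. Their log2 fold changes were 0.50 ± 0.22 and 0.49 ± 0.24, with edgeR adjusted p-values of 0.664 and 0.689.

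The list of mTORC1, *Larp1*, and *Myc* family regulators, which control ribosomal protein expression and TOP translation, had a median of 0.00 over 41 genes. *Lamtor3*, part of the complex that holds mTORC1 on lysosomes, had 726 and 739 counts in the controls and 477, 409, and 581 in *Hif1aCKO*. *Myc* had 999.9 and 1734 against 1043, 787, and 692, and *Mycl* 191 and 281 against 358, 410.4, and 366. *Lamtor3* was lower and *Mycl* higher in every *Hif1aCKO* library, while *Myc* overlapped. The edgeR adjusted p-value was 0.621 for each of the 3 genes.

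Levels were compared between members as normalized counts per kilobase of exons, since the counts grow with length. Among the 5 highest were *Rpl4* at 6159, *Rpl32* at 5628, *Rps15* at 4431, and *Rplp0* at 4366, and the median over the members was 1137. The 90th percentile was 11.2 times the 10th, and in single libraries this ratio was between 10.7 and 11.6. The ratio depended on the length used and was 9.09 when the longest coding transcript gave the length and 26.6 when only positions not shared with another annotated gene did. Replicates of a gene lay close together beside these differences. The median biological coefficient of variation was 0.148 over the members, 0.289 over all genes tested, and 0.163 over the 4150 genes with a mean of at least 500 counts.

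**Figure D4:**
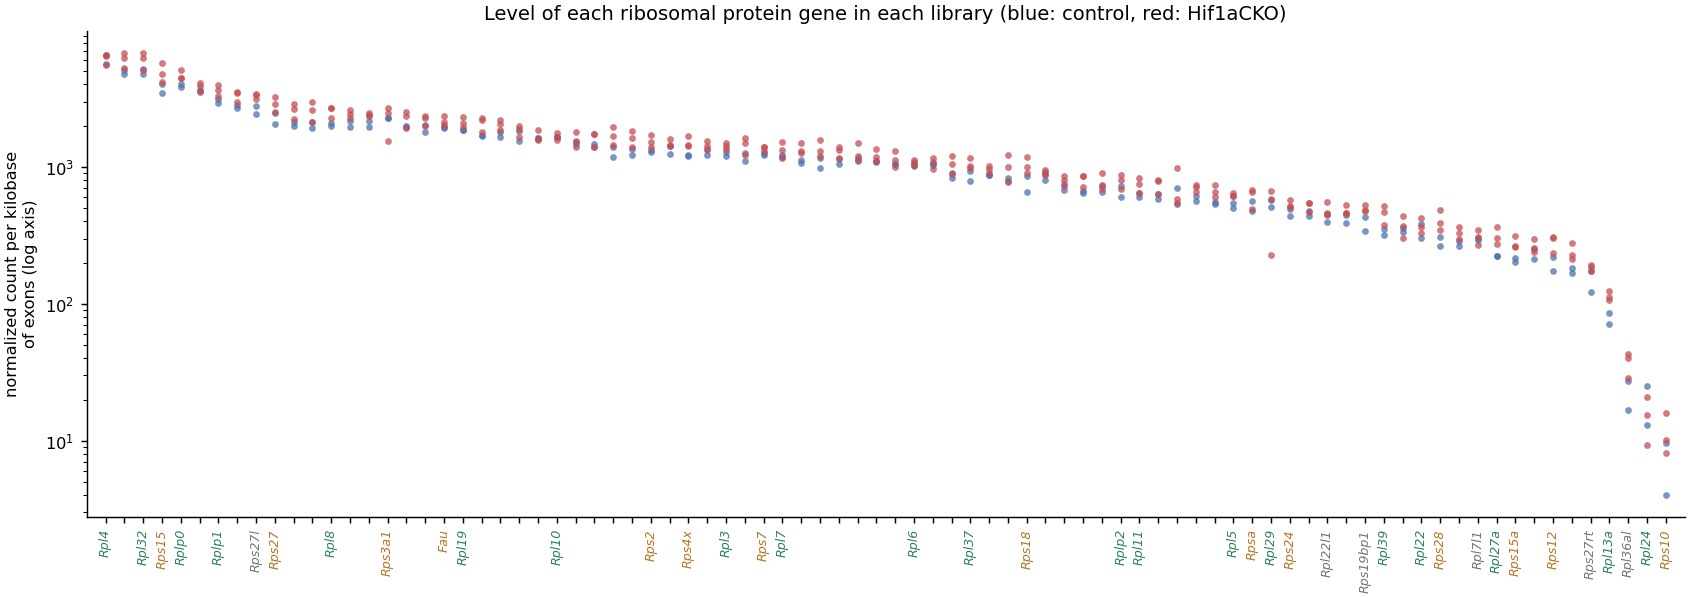
The level of each of the 84 members in normalized counts per kilobase of exons (log axis) in each of the 5 libraries, ordered by mean level, with the members named in the text labelled. *Rpl4* was the highest at 6159, and *Rpl13a*, *Rpl36al*, *Rpl24*, and *Rps10* formed the low end at 99.8, 31.2, 16.8, and 9.62.

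The genes at the low end share exons with other gene models. Deposited counts of *Rps10* ran from 9 to 38 and those of *Rpl24* from 9 to 28, although both encode core proteins of the ribosome. Exons of other gene models cover 28.7% of the exonic bases of *Rps10*, of which *RPS10-NUDT3* on the same strand covers 20.6%, with the remaining 8.18% on the opposite strand. In *Rpl24* they cover 47.0%, all of it by *Gm28037* on the same strand. For *Rpl13a* this share was 35.4%, most of it by *Gm45713*, and for *Rpl36al* 24.5%, all of it by *Gm49383*. Reads that overlap several genes may not be counted for any of them, so that the level and the fold change of these genes are uncertain. The members with the largest positive fold changes, *Rpl36al* (0.74 ± 0.58), *Rps10* (0.74 ± 0.82), and *Rpl13a* (0.55 ± 0.26), and the one with the largest negative, *Rpl24* (-0.33 ± 0.86), are all among them. *Rps27rt*, a retrotransposed copy of *Rps27*, was also low, with 64.6 and 45.4 counts against 71.8, 64.9, and 69.1.

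Reads were counted only where they mapped to 1 place, so sequence that a member shares with other places in the genome bears on its counts. Of all 75-base stretches of a member's mRNA, a median of 44.2% also occurred in a transcript of another annotated gene, on either strand. This share ran from 0% to 98.5%, the latter in *Rps27*, and was above 50% in 37 members. It includes gene models that overlap the member at its own locus, and so does not measure multi-mapping alone. In *Rpl35*, with a share of 89.2%, exons of *Wdr38* on the opposite strand cover 66.2% of the exonic bases. Across the members the share had a Spearman correlation of -0.12 with the fold change and of -0.09 with the level per kilobase. Both are descriptions over 84 genes of the same libraries.

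The annotation holds 512 copies of members elsewhere in the genome, of which 489 are processed pseudogenes, and 187 of the 512 are in the counts table. Together they held between 1569 and 2131 counts per library, or from 0.865% to 1.14% of the members' counts, and 157 of the 187 had at most 20 counts in every library. Against this low background, 4 annotated copies of 3 members had at least 100 counts in 1 library and at least 10 times the next highest. They are chosen by these counts, which are given as a description.

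*Rps3a3*, an annotated processed pseudogene of *Rps3a1*, had 566 deposited counts in *Hif1aCKO* replicate 3 and 3, 3, 4, and 7 in the other libraries. In the same library *Rps3a1* was at its lowest, with 1413 counts against 2132 and 2402 in the controls and 2426 and 2719 in the other *Hif1aCKO* libraries. *Gm10260*, a copy of *Rps18*, had 276 counts in control replicate 6 and at most 1 elsewhere, and *Gm26619*, a long noncoding RNA gene over the same locus, had 312 there and at most 2 elsewhere. *Rps18* itself was at its lowest in that library, with 1742 counts against 2027 in control replicate 5 and 2064, 2472, and 2994 in *Hif1aCKO*. *Gm6472*, a copy of *Rps7* on the X chromosome, had 143 counts in *Hif1aCKO* replicate 4 and at most 7 elsewhere, while *Rps7* showed no matching gap, with 2446, 2652, 2617, 2625, and 2895 counts.

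The copies differ from their mRNAs at few positions. *Rps3a3* matched 786 of 795 aligned bases of *Rps3a1* (98.9%), *Gm10260* 540 of 545 bases of *Rps18* (99.1%), and *Gm6472* 647 of 651 bases of *Rps7* (99.4%), none with a gap. A coding stretch of 75 bases, close to the length of a read, is shown for each pair, with the 2 bases that differ in capitals. It was chosen as the first stretch within a coding exon with the most differences. The stretches lie on GRCm38 at chr3:86141333-86141407 (minus strand, *Rps3a1*), chr13:108670788-108670862 (plus, *Rps3a3*), chr17:33952233-33952307 (minus, *Rps18*), chr13:97760218-97760292 (minus, *Gm10260*), chr12:28635580-28635654 (minus, *Rps7*), and chrX:152910046-152910120 (minus, *Gm6472*).
Rps3a1: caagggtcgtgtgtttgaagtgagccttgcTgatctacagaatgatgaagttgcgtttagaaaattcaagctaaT
Rps3a3: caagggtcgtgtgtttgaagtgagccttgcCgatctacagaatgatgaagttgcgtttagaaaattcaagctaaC
Rps18: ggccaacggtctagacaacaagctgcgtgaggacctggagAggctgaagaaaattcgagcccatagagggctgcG
Gm10260: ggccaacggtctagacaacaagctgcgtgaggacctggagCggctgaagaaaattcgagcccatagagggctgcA
Rps7: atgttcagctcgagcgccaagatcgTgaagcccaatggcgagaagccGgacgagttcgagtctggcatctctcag
Gm6472: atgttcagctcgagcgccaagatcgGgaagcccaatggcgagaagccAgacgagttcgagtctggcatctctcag

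The normalized counts of *Rps3a1* and *Rps3a3* together were 2224 and 2231 in the controls and 2122, 2425, and 2653 in *Hif1aCKO*, compared with 2221, 2228, 1515, 2423, and 2646 for *Rps3a1* alone. The sum of *Rps18*, *Gm10260*, and *Gm26619* was 2113 and 2161 in the controls and 2215, 2468, and 2915 in *Hif1aCKO*, so that the controls differed less than in *Rps18* alone. With every copy added, the log2 fold change of *Rps3a1* went from -0.02 to 0.10 and that of *Rps18* from 0.44 ± 0.18 (edgeR adjusted p = 0.630) to 0.25. The small counts of *Rpl24* and *Rps10* moved as well, from -0.33 to 0.00695 and from 0.74 to 0.51, and the other 80 members moved by at most 0.05. The median over the members was then 0.24, and 83 members lay above 0.

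**Figure D5:**
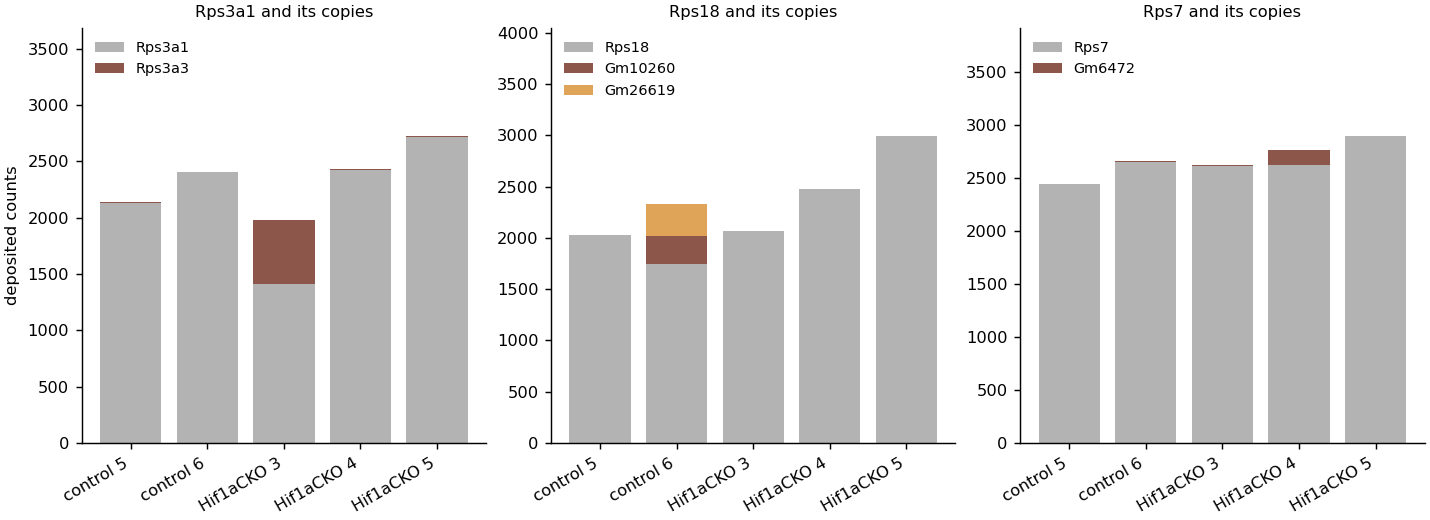
Deposited counts of *Rps3a1*, *Rps18*, and *Rps7* (grey) with those of their annotated copies stacked on top (coloured) in each of the 5 libraries. The copies were visible in 1 library each: *Rps3a3* with 566 counts in *Hif1aCKO* replicate 3, *Gm10260* and *Gm26619* with 276 and 312 in control replicate 6, and *Gm6472* with 143 in *Hif1aCKO* replicate 4.

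*Rpl29* showed a gap of the same kind without such a copy among those in the counts table. It had 643 and 577 normalized counts in the controls and 256, 655, and 746 in *Hif1aCKO*, so that replicate 3 alone lay below the controls. Its log2 fold change was -0.14 ± 0.39 with all libraries and 0.20 without *Hif1aCKO* replicate 3. None of the annotated copies of *Rpl29* in the counts table passed the same limits in that library. Of the 512 annotated copies of all members 187 were in the table, and the others could not be checked.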

How the data were processed

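RNA-seq libraries of 100 sorted cells, 2 control and 3 *Hif1aCKO*, were made with a NEBNext low input kit, whose strand use is not given in the sources used here. After adaptor and quality trimming (cutadapt, Trimmomatic) and removal of reads from rRNA and vectors (Bowtie 1.2.2, SortMeRNA), the authors aligned to GRCm38 by STAR 2.7.0c and counted per gene by Rsubread, leaving out multi-mapping reads. The deposited values are these raw counts. Version numbers come from the submitters' processing notes.

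Genotypes were compared with edgeR 4.0.16 in R 4.3.3 (TMM factors, filterByExpr, quasi-likelihood test, no other term), with Benjamini-Hochberg adjustment over the 15032 genes kept. For a single gene the 5 libraries allow only 10 splits, so an exact permutation p-value cannot go below 0.1 and none is given. The edgeR p-values set the genotype difference against the spread between these libraries, which is estimated partly from other genes. Normalized counts are scaled by the TMM effective library size, and 0.5 was added before a library's log2 deviation was taken. Members, gene lists, and motifs were chosen with earlier results of these data known. Genes named were the members with the smallest p-values, the largest fold changes, the highest and lowest levels, and the largest and smallest spreads, the paralogs with their partners, *Rack1*, *Rpl5*, *Rpl11*, *Rps19bp1*, *Hif1a*, and at most 3 genes of each list by p-value. Some genes that this rule takes are not reported here. The copies were described after their values were seen.

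Names, exons, and transcripts came from GENCODE M21 on GRCm38, and 29 genes of the table are not in it. The paper names another release for the mapping, so exon overlaps and copies may differ from those in the counting. Where a deposited count rests on exons shared with another gene, strand could not separate them. A copy shared at least 50 stretches of 36 bases with a member, over at least 25% of its length (50% for coding genes). Scripts ran in Python 3.11.15 and were tested on simulated data. Alternatives were RLE and upper-quartile factors, TMM factors without the members, DESeq2 1.42.0, limma-voom 3.58.1, other filters and call rules, each library left out in turn, other denominators and lengths, and, chosen after the data were seen, copies added to their members and the length not shared with other transcripts.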

Additional observations from a re-analysis of the deposited data

How the results depend on the processing

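The count of members called was 0 under every alternative run. DESeq2 called 60 genes of the whole table where edgeR called none, and leaving out 1 library at a time gave from 0 to 4 genes (4 without control replicate 5, where 1 control remained and was assumed to vary like the other group). The median log2 fold change of the members was between 0.17 and 0.30 when a library was left out, and between 0.23 and 0.28 under the other alternatives. From 46 to 50 members had separate groups under the other alternatives, and from 48 to 70 with a library left out (57.1% to 83.3%), where the share over all genes in either direction also rose, from 25.7% to between 37.4% and 50.7%. Without control replicate 6 the shares were closest, 57.1% of members against 48.0% of all genes. The share of counts differed by 0.379 percentage points between the genotypes, by 0.262 to 0.497 with a library left out, and by 0.309 to 0.416 with other denominators, without the 5 most abundant members, or with copies added. The spread of levels per kilobase, 11.2, was 9.09 with the longest coding transcript and 26.6 with positions not shared with other transcripts, and between 10.9 and 11.4 with a library left out.

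Among the named genes, *Rps3a1* turned to 0.0196 with upper-quartile factors and to 0.105 with copies added, and *Rpl24* to 0.00695 with copies added. Leaving out a library turned the sign of some genes near 0. The ranges were -0.17 to 0.19 for *Rps3a1*, -0.72 to 0.20 for *Rpl24*, -0.42 to 0.20 for *Rpl29*, -0.0377 to 0.0507 for *Rpl10*, -0.0933 to 0.117 for *Rpl4*, -0.0432 to 0.296 for *Rpl22*, -0.0512 to 0.138 for *Rpl7l1*, and -0.00773 to 0.185 for *Rack1*. The cause was not tested. No paired analysis was possible because the groups share only replicate number 5. The planned length of positions unique in the genome was not run, since no genome was used here. Without *Hif1aCKO* replicate 5, no member had an unadjusted edgeR p-value under 0.05, against 6.36% of all genes. The median log2 fold change of the members was between 0.17 and 0.30, so the size of the shift depended on the library left out.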

Other observations

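*Gm11942*, an annotated processed pseudogene of *Rplp1*, was the copy with the most counts across libraries, with 243 and 232 in the controls and 133, 290, and 325 in *Hif1aCKO*, and it was lowest in *Hif1aCKO* replicate 3. Small nucleolar RNA genes lie within 30 members, 58 in all. The median log2 fold change of these members was 0.23, against 0.25 in the 54 members without one.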
